A study of Mus musculus with 5 samples.

Results

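The genes described here are 9 genes known from amoeboid neonatal microglia, chosen by name: Igf1, Lpl, Clec7a, Itgax, Gpnmb, Spp1, Pld4, Csf1 and Axl. They were chosen with earlier results of these data known. Every probe set that the platform annotation assigns to 1 of them was taken, which gave 17 probe sets for 8 genes, of 45037 probe sets for 18193 genes tested. Spp1 had no assigned probe set and was not analysed here. Expression was measured on Affymetrix arrays in tissue of the dLGN, or dorsal lateral geniculate nucleus, the relay of the visual pathway in the thalamus, of mice at postnatal day 0 on a C57BL/6 background. The knockout group, Sema6A-/-, lacks the axon guidance gene Sema6a and has 2 arrays. The heterozygous control group, which also carries 1 disrupted copy, has 3 arrays. Each array holds nuclei pooled from pups of 1 genotype and several litters, so the p-values measure the spread between pools, and the number of arrays limits the precision. No wild-type group is among the samples, and the labels do not give the sex of the pups or the kind of disruption.

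Microglia are the resident macrophages of the brain and enter it from the yolk sac before birth. Around birth many are round, amoeboid cells that engulf dying cells and debris, above all in growing fibre tracts. In this state they are known to express growth factors, lipid-handling enzymes and phagocytic receptors that quieter, branched microglia express little of.

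The targeted gene followed the labels. At its brightest probe set Sema6a read 7.81 and 7.85 on the log2 scale in the knockout arrays and 10.39 to 10.65 in the controls. Of 10 thalamic relay genes, the brightest were the transcription factor gene Tcf7l2, at 12.74 to 13.20 over the 5 arrays, and Slc17a6, the vesicular glutamate transporter of these neurons, at 12.77 or more. At an unadjusted limma p under 0.05, 2 of the 10 were higher in the knockout, Calb2 by 1.13 and Foxp2 by 0.48. Rora was lower, by -0.36. Over all genes the shares were 6.9% and 4.9%. Gbx2, singled out after its values were seen, read 9.02 in knockout replicate 1, 11.22 in knockout replicate 2 and 6.95 to 8.86 in the controls. Knockout replicate 1 stood apart. The summed level of 12 prethalamic and GABAergic genes was 13.08 on the log2 scale there, 10.53 in knockout replicate 2 and 9.92 to 10.76 in the controls, and in knockout replicate 1 the ends of 2 control transcripts differed most. For Gapdh, the value at the 3′ end minus that at the 5′ end was 2.34 in that array, 0.96 in knockout replicate 2 and 0.77 to 1.33 in the controls. Control replicate 3 stood apart in 10 meningeal and fibroblast genes, whose median level was 8.35 there, 6.93 and 6.42 in the other controls and 6.57 and 6.32 in the knockout arrays. The members' differences are therefore also given without each knockout array, and sign changes without a control are named.

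At their brightest probe sets, the members split into genes that were higher on both knockout arrays and genes whose groups lay together. Pld4 rose 2.74-fold (limma adjusted p = 0.0392). Igf1, Lpl and Clec7a were higher by larger amounts, 5.37-fold, 3.95-fold and 3.75-fold at their brightest probe sets, and missed the adjusted threshold of 0.05, with limma adjusted p-values of 0.0546, 0.0649 and 0.123. Itgax was 1.42-fold higher. Csf1, Axl and Gpnmb differed by 1.05-fold, 1.10-fold and 1.06-fold at their brightest probe sets, less than the SD of the control arrays.

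Of the 17 member probe sets, 1 passed the adjusted threshold, where 0.0733% of all probe sets did and 0.0644% did upward. By unadjusted p, with the limit at 0.05, 10 were higher and 0 lower in the knockout, against 5.16% higher and 5.99% lower among all probe sets. For 11 of the 17, both knockout arrays lay above every control, against 12.9% of all probe sets, and for 0 of the 17 below every control, against 14.5%. Probe sets of 1 gene read the same transcripts and are not independent of each other. By gene, at the brightest probe set, 5 of 8 were higher and 0 lower on that basis, against 6.9% and 4.9% of all genes, and 1 of 8 passed the adjusted threshold upward, against 0.0879%. The median log2 fold change was 0.98, against 0.0085 over all genes. The members and the lists below were chosen with earlier results of these data known, so an excess over these shares is no independent evidence. These are whole-tissue measurements, in which more cells of a type and more RNA per cell cannot be told apart.

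**Figure D1:**
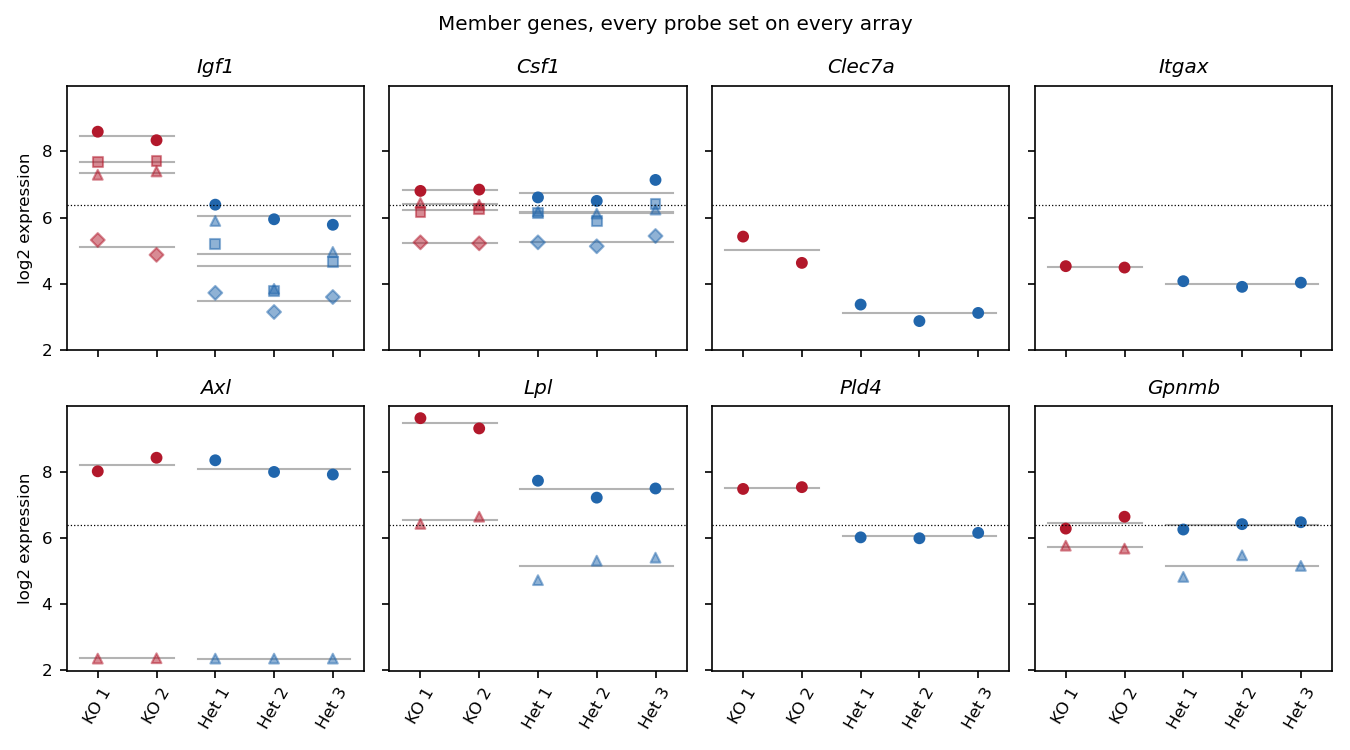
Log2 expression of the 8 measured members on each of the 5 arrays (KO, knockout, red; Het, heterozygous control, blue), with 1 marker shape for each probe set, the brightest as opaque circles, grey bars for group means and a dotted line at 6.39, the median of all probe sets. All 4 Igf1 probe sets, both Lpl probe sets, Clec7a and Pld4 are higher on both knockout arrays, while Axl and the brightest probe sets of Csf1 and Gpnmb overlap.

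Igf1 and Csf1 are the secreted growth factors of the set. Insulin-like growth factor 1 acts on neurons and on oligodendrocyte precursors, and neonatal amoeboid microglia are a known source of it. At its brightest probe set Igf1 read 8.60 and 8.34 in the knockout arrays and 6.39, 5.95 and 5.79 in the controls. Both knockout arrays were thus far above the highest control. The group means were 8.47 ± 0.18 (SD, n = 2) and 6.04 ± 0.31 (SD, n = 3), a log2 fold change of 2.42 with a standard error of 0.21 (limma adjusted p = 0.0546). Without knockout replicate 1 the difference was 2.30, and without knockout replicate 2 it was 2.55.

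The other 3 Igf1 probe sets went the same way without overlap. One read 7.69 and 7.71 in the knockout and 5.21, 3.79 and 4.65 in the controls, the largest member difference at 3.14 (limma adjusted p = 0.103). Another read 7.30 and 7.40 against 5.90, 3.85 and 4.97, a difference of 2.44 (limma adjusted p = 0.254). The dimmest read 5.33 and 4.88 against 3.73, 3.15 and 3.60, a difference of 1.61 (limma adjusted p = 0.1205). The control arrays spread more than the knockout arrays at the first 2 of these, with control replicate 2 the lowest at each of the 3.

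Csf1 encodes a growth factor that microglia and other macrophages need to survive, and glia and neurons make it as well. Its brightest probe set read 6.81 and 6.85 in the knockout and 6.61, 6.51 and 7.14 in the controls. The highest control lay above both knockout arrays, and the log2 fold change was 0.075 with a 95% interval of -0.45 to 0.60. It was 0.095 without knockout replicate 1, 0.056 without knockout replicate 2 and -0.048 without control replicate 2. Without control replicate 3, the highest array and the one with the bright meningeal genes, it was 0.27; the part of those genes was not tested. A second probe set read 6.44 and 6.39 against 6.19, 6.12 and 6.24, a difference of 0.23 without overlap (limma unadjusted p = 0.0753). The remaining 2 differed by 0.066 and -0.039 and overlapped.

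Clec7a, Itgax and Axl are surface receptors. Clec7a encodes dectin-1, a lectin receptor for beta-glucans on phagocytes. It read 5.43 and 4.63 in the knockout and 3.38, 2.88 and 3.12 in the controls. Every control lay under the lower quartile of all probe sets, 4.23, and both knockout arrays above it. The difference of 1.91 had a standard error of 0.28 (limma adjusted p = 0.123). Knockout replicate 1 was the higher of the pair: the difference was 1.51 without it and 2.30 without knockout replicate 2.

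Itgax encodes CD11c, an integrin chain that marks dendritic cells and a subset of neonatal microglia. It read 4.54 and 4.49 in the knockout and 4.08, 3.91 and 4.04 in the controls. The groups did not overlap, and the difference of 0.50 with a standard error of 0.11 had an unadjusted p of 0.00476 in limma (adjusted p = 0.232). It was 0.48 without knockout replicate 1 and 0.53 without knockout replicate 2. All 5 values lay near the lower quartile of 4.23, where the processing of the arrays compresses differences.

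Axl encodes a receptor tyrosine kinase that, with its ligand Gas6, takes part in the uptake of dying cells. It read 8.01 and 8.42 in the knockout and 8.34, 7.99 and 7.91 in the controls. The knockout values fell on both sides of the highest control. The log2 fold change was 0.13 with a 95% interval of -0.36 to 0.62, which excludes a difference as large as that of Igf1 or Lpl. The sign rested on knockout replicate 2, without which it was -0.072, against 0.34 without knockout replicate 1. The other Axl probe set read 2.35 to 2.36 on all arrays, with 1 value shared to the last digit by 4 of them, and carries no information on a difference.

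**Figure D2:**
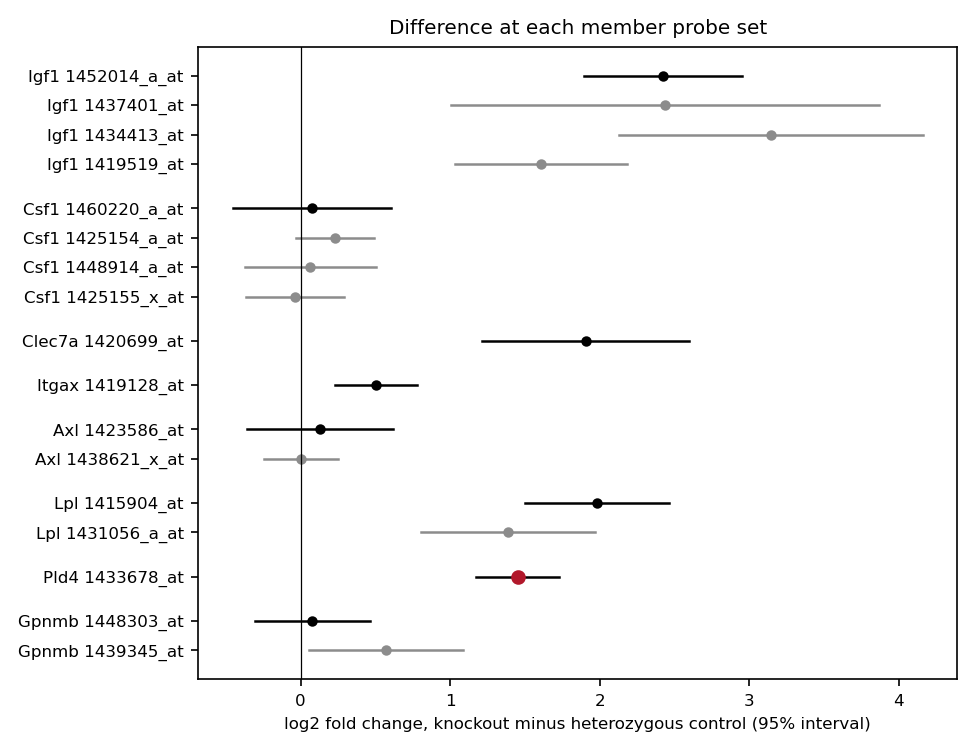
Log2 fold change, knockout minus heterozygous control, at each of the 17 member probe sets, with 95% intervals from limma; black marks the brightest probe set of a gene, grey the others, and red the 1 probe set past the adjusted threshold. The 4 Igf1 probe sets lie between 1.61 and 3.14, and the intervals of all Csf1 and Axl probe sets include 0.

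Lpl and Pld4 encode enzymes. Lipoprotein lipase, the product of Lpl, releases fatty acids from lipoprotein particles. Its brightest probe set read 9.61 and 9.30 in the knockout and 7.72, 7.21 and 7.49 in the controls. Both knockout arrays were well above every control. The means were 9.46 ± 0.22 (SD, n = 2) and 7.48 ± 0.26 (SD, n = 3), a log2 fold change of 1.98 with a standard error of 0.19 (limma adjusted p = 0.0649). It was 1.83 without knockout replicate 1 and 2.14 without knockout replicate 2. The second probe set read 6.42 and 6.64 against 4.72, 5.31 and 5.40, a difference of 1.38 (limma adjusted p = 0.151).

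Pld4 was the member that passed the test. Phospholipase D4 belongs to the phospholipase D family but acts as an exonuclease of single-stranded nucleic acids in endosomes and lysosomes of phagocytes. It read 7.48 and 7.53 in the knockout and 6.01, 5.99 and 6.15 in the controls. The arrays of each group lay close together, with means of 7.50 ± 0.038 (SD, n = 2) and 6.05 ± 0.087 (SD, n = 3). The difference of 1.45 had a standard error of 0.11 (limma adjusted p = 0.0392). It was 1.48 without knockout replicate 1, 1.43 without knockout replicate 2 and 1.42 to 1.503 with any 1 of the 5 arrays left out, but its limma adjusted p then lay between 0.0827 and 0.265. With array weights it was 0.0565.

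The bases before the start of Pld4 are shown because it is the member that passed, together with the stretches that hold GAGGAAGT, a form of the site that PU.1, the transcription factor of the myeloid lineage, is known to bind. The sequences are from RefSeq on the build GRCm38.p6, where 8 of the 9 members had an entry and Lpl had none. The 250 bases before Pld4, chr12:112760405-112760654 on the plus strand, hold no GAGGAAGT or AGGAAGT on either strand. The longer motif, in capitals, was found at bases 10 to 17 after the start of Pld4 and at bases -113 to -106 of 1 of the 2 starts listed for Spp1. Each is printed within a stretch of 20 bases, chr12:112760658-112760677 for Pld4 and chr5:104434992-104435011 for Spp1, both on the plus strand.
Pld4 before the start: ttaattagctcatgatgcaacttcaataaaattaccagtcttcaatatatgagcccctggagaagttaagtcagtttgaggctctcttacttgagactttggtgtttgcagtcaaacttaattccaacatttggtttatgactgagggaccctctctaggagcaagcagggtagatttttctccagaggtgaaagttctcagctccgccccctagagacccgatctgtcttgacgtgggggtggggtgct
Pld4 after the start: aacaaaGAGGAAGTgaatgg
Spp1 before the start: ccagagGAGGAAGTgtagga
On either strand, GAGGAAGT was in 2 of 10 member windows of 300 bases, and in 3.2% of 32851 such windows of all genes. The shorter motif AGGAAGT, which is part of it, was in the same 2 member windows and in 9.35% of all. No member window besides these held either motif, so the higher members Igf1, Clec7a and Itgax had none in theirs.

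Gpnmb encodes a membrane glycoprotein of lysosome-rich phagocytes and pigment cells. Its brightest probe set read 6.28 and 6.64 in the knockout and 6.25, 6.41 and 6.47 in the controls. The groups overlapped, with a log2 fold change of 0.079 and a 95% interval of -0.30 to 0.46. Without knockout replicate 2 the value was -0.0996, and without knockout replicate 1 it was 0.26. The other probe set read 5.76 and 5.67 against 4.82, 5.47 and 5.15. Its difference was 0.57 without overlap, with a 95% interval of 0.055 to 1.08 (limma unadjusted p = 0.0355, adjusted p = 0.406).

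The genes most like Pld4 over the 5 arrays were sought among 11745 genes above the median level, by the root mean square difference of values centred on the control mean. They were AW551984 at 0.0728, Cebpa, which encodes a regulator of myeloid cell fate, at 0.131, and Plxnc1, a semaphorin receptor, at 0.135. Their log2 fold changes were 1.49, 1.65 and 1.35, against 1.45 for Pld4. These genes were picked for their closeness to Pld4 on the same arrays, so similar differences follow from the choice.

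The members were then set beside 19 measured genes of homeostatic microglia, the state of branched resident cells. Of these, 16 were higher and 0 lower by unadjusted p at the limit of 0.05, against 6.9% and 4.9% of all genes. The median log2 fold change was 1.13. None passed the adjusted threshold in limma at the brightest probe set. Cx3cr1, the fractalkine receptor, differed by 1.85, the calcium-binding gene Aif1 by 1.00 and Fcrls by 1.88. The complement genes C1qb and C1qc differed by 2.55 and 2.11, and Csf1r, the receptor for Csf1, by 2.24. The limma adjusted p-values of these 6 genes lay between 0.0522 and 0.130.

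On each array, the level of a member minus the median of the homeostatic list was compared between the groups. That median was 8.33 and 8.27 in the knockout and 7.01, 7.05 and 7.13 in the controls. This level minus the list median was higher in the knockout than in the control by 1.19 for Igf1, 0.75 for Lpl, 0.67 for Clec7a and 0.22 for Pld4. For Clec7a the difference was 0.31 without knockout replicate 1 and 1.04 without knockout replicate 2. Relative to the list Csf1 differed by -1.16, Gpnmb by -1.16, Axl by -1.10 and Itgax by -0.73. For the latter 4 both knockout values were below every control value on this scale, and for the former 4 both were above. The list median was itself 1.23 higher in the knockout, so a gene with little change of its own tends to fall below every control here. The placing of Csf1, Gpnmb and Axl therefore follows from the rise of the list. How many of all genes lie below on this scale was not counted. The exact permutation test over samples, two-sided, gave p = 0.1 for 6 members, the smallest the design allows, and 0.2 for Lpl and Clec7a (0.133 and 0.2 with Benjamini-Hochberg adjustment over the 8). None of these differences could therefore reach 0.05. Such a ratio shows unequal change on the array and not that Csf1, Gpnmb or Axl were the same in both groups.

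**Figure D3:**
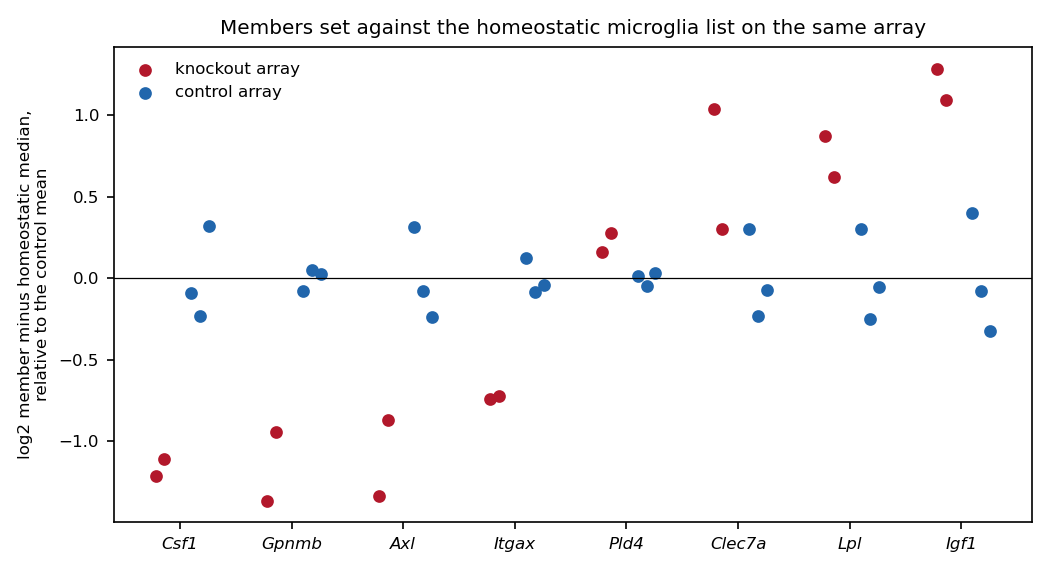
Log2 level of each member's brightest probe set minus the median of 19 homeostatic microglia genes on the same array, with the control mean set to 0; red points are the 2 knockout arrays and blue points the 3 control arrays. The group difference is largest for Igf1, at 1.19, and lowest for Csf1, at -1.16.

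Other genes known from the amoeboid and phagocytic state differed unevenly. Of 29 measured, 15 were higher and 1 lower on the same basis, against 6.9% and 4.9% of all genes, with a median log2 fold change of 0.40. Tyrobp, the adaptor of microglial surface receptors, rose by 2.46 (limma adjusted p = 0.0236). The chemokine gene Ccl6 differed by 1.85, the surface antigen gene Cd52 by 2.43, the lysosomal glycoprotein gene Cd68 by 1.40, the lipid receptor gene Trem2 by 1.31 and Gpx3, a glutathione peroxidase, by 0.66, with limma adjusted p-values from 0.0649 to 0.198. These genes were named among those with a mean over all arrays above 6.39. Cd52 and Trem2, with control means of 5.95 and 6.37, passed that limit only through their knockout arrays. Cst7, which encodes the protease inhibitor cystatin F and was singled out after its values were seen, read 9.74 in knockout replicate 1, 4.38 in knockout replicate 2 and 3.79, 3.97 and 4.14 in the controls. Its difference of 3.09 rested on 1 array (limma adjusted p = 0.520), the one with the high prethalamic genes and the uneven transcript ends. The part of those features in the Cst7 value was not tested.

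The receptors, ligands and cofactors of the members were read next. Of 31 measured, 6 were higher and 1 lower on that basis, against 6.9% and 4.9% of all genes. The median was 0.13, and none passed the adjusted threshold in limma. Csf1r stands in this list too and is counted here and among the homeostatic genes. Itgb2, the integrin chain that pairs with CD11c, read 6.36 and 5.20 in the knockout and 4.15, 4.51 and 4.36 in the controls. Sdc4, a proteoglycan that Gpnmb is known to bind, differed by 0.56, Pros1, a ligand of the receptor family of Axl, by 0.54 and the binding protein gene Igfbp5 by 0.50. Igfbp3 differed by -0.48 and the lipoprotein receptor gene Vldlr by 0.36. The limma adjusted p-values of these genes lay between 0.232 and 0.502. Gas6, the ligand of Axl, read 9.91 to 10.06 over the 5 arrays. Igf1r, the receptor of Igf1, differed by -0.05, and the related gene Pld3 by -0.10. Itgb2, Gas6, Igf1r and Pld3 were named for their pairing with members, after their values were seen.

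**Figure D4:**
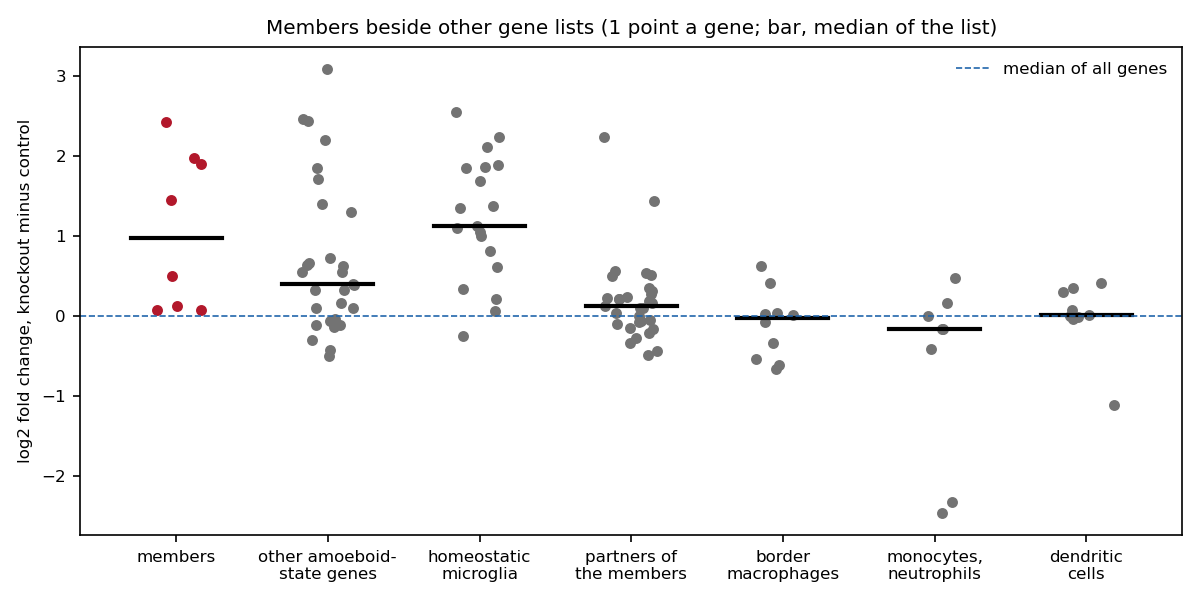
Log2 fold change, knockout minus control, in 7 lists, each gene at its brightest probe set; 1 point is a gene, the bar is the median of the list and the dashed line the median of all genes, 0.0085. The members divide into 4 genes at 1.45 or more and 4 at 0.504 or less, homeostatic genes have a median of 1.13, and genes of border macrophages, monocytes and neutrophils, and dendritic cells have medians of -0.027, -0.16 and 0.019.

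Other cells can express some members, so their markers were read on the same arrays. Counts for these lists are at an unadjusted p under 0.05 in limma, where 6.9% of all genes were higher and 4.9% lower. Of 10 border macrophage genes, 1 was higher at an unadjusted p under 0.05, and their summed level was 9.93 to 10.54 in the knockout and 9.96 to 10.40 in the controls. The brightest, F13a1, read 8.67 and 10.07 against 9.29 to 9.43, and Stab1 8.31 and 7.85 against 7.28 to 7.78, while Cd209f, Clec4n and Ms4a7 lay under the lower quartile. Of 8 monocyte and neutrophil genes, 2 were lower, S100a9 by -2.32 and S100a8 by -2.46, and the summed level was 7.51 to 7.80 against 8.69 to 9.37. Ccr2, Elane and Ngp lay under the lower quartile. Of 9 dendritic cell genes, 1 was lower, Flt3 by -1.11, and the summed level was 11.40 to 12.44 against 11.57 to 11.66. Most of that sum was Zbtb46, which read 12.31 in knockout replicate 1 and 11.14 to 11.38 elsewhere, and Ccr7, Cd209a and Xcr1 lay under the lower quartile.

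Oligodendrocyte and glial genes were read as well, because these cells can make Csf1, Axl, Igf1 or Lpl. Of 11 oligodendrocyte lineage genes, 3 were higher and 1 lower, with a median of 0.19 and a summed level of 13.58 to 13.70 in the knockout against 13.18 to 13.32. The brightest were Cnp, at 0.23, and Pdgfra, at 0.42. The higher genes were Pdgfra, Mbp, at 1.55, and Sox10, at 0.83, and the lower gene was Mag, at -0.92. Mbp, Sox10 and Mag are named for their p and not for their level. Of 10 radial glia and astrocyte genes, 0 were called either way at an unadjusted p under 0.05 in limma, with a median of 0.087 and a summed level of 14.97 to 15.03 against 14.86 to 14.95; Fabp7 differed by 0.095 and Vim by 0.037. Of 12 endothelial and pericyte genes, 4 were higher, with a median of 0.24 and Slc2a1 at 0.29 and Rgs5 at -0.24. Of 10 meningeal and fibroblast genes, 1 was higher and 1 lower, with a median of -0.46. The brightest were Pdgfra, which was the higher gene, at 0.42, and Igfbp2, at 0.004. The lower gene was Col1a1, at -1.95. Of 6 red cell genes, 0 were higher and 1 lower, with a median of -0.19 and Hba-a2 and Hbb-b2 as the brightest. The prethalamic list had a median difference of 1.32, with Gad1 at 1.06 and Gata2 at 0.43, but its median level was 9.23 in knockout replicate 1, 6.30 in knockout replicate 2 and 5.90 to 6.97 in the controls. Gad1 read 10.40 and 8.25 in the knockout arrays and 7.25 to 9.02 in the controls. The part of these cell types in the members' differences was not tested.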

How the data were processed

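The authors deposited log2 values for each probe set. The submitters' processing notes name RMA and no version, and its settings were not stated. RMA corrects background, equalises the distributions of arrays and combines probes into 1 value, so changes shared by most genes are lost and small values are compressed. Per the labels' protocols, RNA was amplified before labelling.

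Of 45101 probe sets, 64 array controls were left out. The platform annotation gave 34945 probe sets 1 gene, 932 several and 9160 none, and only the first were named. A gene is represented by its brightest probe set, by the mean of the 5 arrays. Of the members, 6 of 8 genes lay above the median level of 6.39 there, and Clec7a and Itgax did not. By their control means alone, Igf1, Pld4 and Gpnmb lay under it as well.

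Groups were compared with limma 3.58.1 in R 4.3.3 (lmFit and eBayes, two-sided, genotype only), with Benjamini-Hochberg adjustment over 45037 probe sets and calls at 0.05; the code was tested on simulated data. Array medians were 6.39 to 6.42, and pairs of arrays correlated at 0.985 to 0.995. The members and gene lists were chosen with earlier results of these data known. All members are named. From lists of the same cells or partners, genes past the threshold and the 6 with the smallest p above the median level are named, and from other lists the 2 with the highest mean, beside the markers under the lower quartile of 3 lists. Other exceptions are stated. Proteins were not used here. Alternatives were a further quantile normalization, centring, a filter on dim probe sets, an intensity trend, a robust prior, array weights, a replicate block, the mean of a gene's probe sets, the mean of the homeostatic list and each array left out.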

Additional observations from a re-analysis of the deposited data

Results flagged for a closer look

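Among the array's own control probe sets, used in no comparison, the 3′ minus 5′ difference of knockout replicate 1 exceeded that of every control: it was 2.34 for Gapdh against at most 1.33, and 1.91 for Actb against at most 1.45. Groups of 2 and 3 arrays were too small to test for single outlying arrays.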

How the results depend on the processing

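With any 1 array left out, 0 member probe sets and 0 probe sets in all passed the adjusted threshold in limma, against 1 and 33 (29 higher and 4 lower) with all arrays; between 9 and 10 member probe sets were then higher at an unadjusted p under 0.05, against 3.78% to 9.34% of all probe sets, the highest share without knockout replicate 2. Where 1 knockout array is left, it is assumed to vary like the controls. The number of member probe sets called was 2 with a further quantile normalization or centring, 3 without dim probe sets or with an intensity trend, and 0 with array weights. In all, 44 probe sets passed with the quantile normalization, 42 with centring, 98 without dim probe sets, 62 higher and 36 lower, 100 with an intensity trend, 66 and 34, and 19 with array weights. Without dim probe sets 6 of the 17 member probe sets remained, and 3 of them were higher at an unadjusted p under 0.05. This filter used the mean over all 5 arrays. The brightest probe sets of Igf1, Pld4 and Gpnmb, with control means of 6.04, 6.05 and 6.38, passed its limit of 6.39 only through their knockout arrays. The calls of Igf1 and Pld4 under this filter are therefore no separate evidence of a difference. With the replicate number as a block, 0 member probe sets and 0 in all were called, and Pld4 gave 1.503 (limma adjusted p = 0.323). Control replicate 3 is alone in its block and adds nothing to the difference, so Pld4 gave 1.503 without that array too. The deviations of same-numbered arrays correlated at 0.148 and 0.212, and those of crossed pairs at -0.212 and -0.148. With 2 knockout arrays the deviations mirror each other, so the crossed values repeat the others with the sign changed. Such values do not settle whether the numbers pair the pools. Igf1 was called in 5 of 13 alternatives (limma adjusted p from 0.0294 to 0.298 over the alternatives) and Lpl in 3 (0.00687 to 0.325). Signs turned with 1 array left out for Axl (-0.072 to 0.34), Gpnmb (-0.0996 to 0.26) and Csf1 (-0.048 to 0.27). The number of members whose level minus the homeostatic median was lower on both knockout arrays than on every control, 4, was the same in all 7 alternatives run for it. In those that leave out 1 array the number could not fall, because groups that lie apart stay apart when an array is removed. In the others too, the higher list level in the knockout places genes with little change below the controls. The cause of these shifts was not tested.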
